A study of Sus scrofa with 32 samples.

Results

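The genes described here are the splicing factors and heterogeneous nuclear ribonucleoproteins (hnRNPs) of fetal pig liver. They are the 62 genes whose probe sets carry exactly 1 symbol beginning with HNRNP, SRSF, SF3A, SF3B, SNRP, LSM and a digit, PRPF or U2AF, of 6765 genes named by 1 symbol on the array. By name there are 17 HNRNP genes, 11 SRSF genes, 7 SF3A and SF3B genes, 10 SNRP genes, 6 LSM genes, 9 PRPF genes and 2 U2AF genes. Each gene is represented by its probe set with the highest mean over all arrays, out of 97 probe sets for the 62 genes. All 62 symbols matched the current pig RefSeq gene table. The names are the only basis of the choice, and some of these proteins act outside the spliceosome.

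Splicing removes introns from pre-mRNA in the spliceosome, which assembles on each intron from small nuclear ribonucleoproteins (snRNPs). The U1 snRNP recognises the start of the intron, the U2 snRNP with its SF3A and SF3B proteins and the U2AF dimer recognise the branch point and the end of the intron, and the U4, U5 and U6 snRNPs join to form the active enzyme. SR proteins (SRSF) mostly promote the use of nearby splice sites, whereas many hnRNPs package nascent RNA, mask splice sites or follow the mRNA to export, translation and decay. The fetal liver makes blood cells as well as plasma proteins, and red cell production in it declines as gestation proceeds.

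The animals were Pietrain pig fetuses, and total RNA of their livers was hybridised to a porcine expression array, 1 sample per array. Their mothers, gilts, received a methyl-enriched or a control gestation diet, and fetuses were collected at 35, 63 or 91 days post coitum (dpc). The methyl-enriched diet has 5 arrays at 35 dpc, 6 at 63 dpc and 5 at 91 dpc, and the control diet has the same numbers, 32 arrays in all. Which fetuses share a mother is not given, so p-values measure the spread between these samples. The number of arrays limits the precision of every value.

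Values are the authors' log2 signals, between 2.20 and 16.6, and a difference of 1 is a 2-fold change. The arrays fell into 18 with a large and 14 with a small gap between the spike-in controls bioC and bioB, a technical split that every group of age and diet spans. The tissue label was held against marker genes: the 22 hepatocyte markers measured averaged 13.6, 14.3 and 14.7 at 35, 63 and 91 dpc. Of 8 lymphocyte markers on the array, CD2, CD3D, CD3E, CD4 and LCK were near the lowest value, and the 1 that passed the filter given next, SLA-DRA, which macrophages also express, averaged 4.54, 5.93 and 8.12 at the 3 ages. Of 7 markers of neighbouring tissues, CPA1, CYP11A1, CYP17A1, GCG and INS were near the lowest value, and the 1 that passed, NR5A1, averaged 5.37, 5.01 and 4.91. A probe set was tested if it exceeded the 40th percentile of an array in at least 5 arrays. That kept 61 of the 62 genes, all but U2AF2, and 15308 probe sets in all. A gene is said to rise or fall where limma's adjusted p, taken over all 15308 probe sets, was under 0.05, and ± after a difference is its standard error.

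Most of the splicing genes changed with gestational age, and the families moved in different directions. Between 35 and 63 dpc, 25 of the 61 genes rose and 25 fell, 82.0% together, where 60.6% of all 15308 probe sets changed, 32.6% upward and 28.0% downward. Between 63 and 91 dpc, 17 rose and 32 fell, 80.3% together, against 58.5% of all probe sets, of which 29.5% rose and 29.0% fell. By the brightest kept probe set of each gene, the rule that also chose the splicing probe sets, 69.0% of 5589 named genes changed between 35 and 63 dpc, 30.5% upward and 38.6% downward, and 62.4% between 63 and 91 dpc, 22.6% upward and 39.9% downward. Of the splicing genes, 52.5% fell between 63 and 91 dpc. Over the whole interval, 91 over 35 dpc, 21 genes rose and 31 fell, 85.2% together, close to the 80.0% of all probe sets (40.9% higher, 39.1% lower) and the 83.6% of named genes (33.6% higher, 50.1% lower). The 2 successive comparisons share the 63 dpc arrays and are not independent of each other.

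The median difference of the 61 genes was -0.02 for 63 over 35 dpc, where that of all probe sets was 0.05, and -0.34 for 91 over 63 dpc, where that of all probe sets was -0.03. Individual genes moved far from these medians. Between 35 and 91 dpc, 15 genes rose and 23 fell by at least 1 log2 unit, 24.6% and 37.7%, where 25.8% and 18.3% of all probe sets and 19.8% and 25.3% of named genes did. The scaling of the arrays bears on the balance of the first interval: with each array centred on its median, 18 genes rose and 31 fell from 35 to 63 dpc, and the median of all probe sets became -0.19. The whole array tilted downward there too, with 3588 of all 15308 probe sets higher and 6497 lower. In the second interval that centring gave 16 genes higher and 36 lower, beside 4181 and 4999 of all probe sets.

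**Figure D1:**
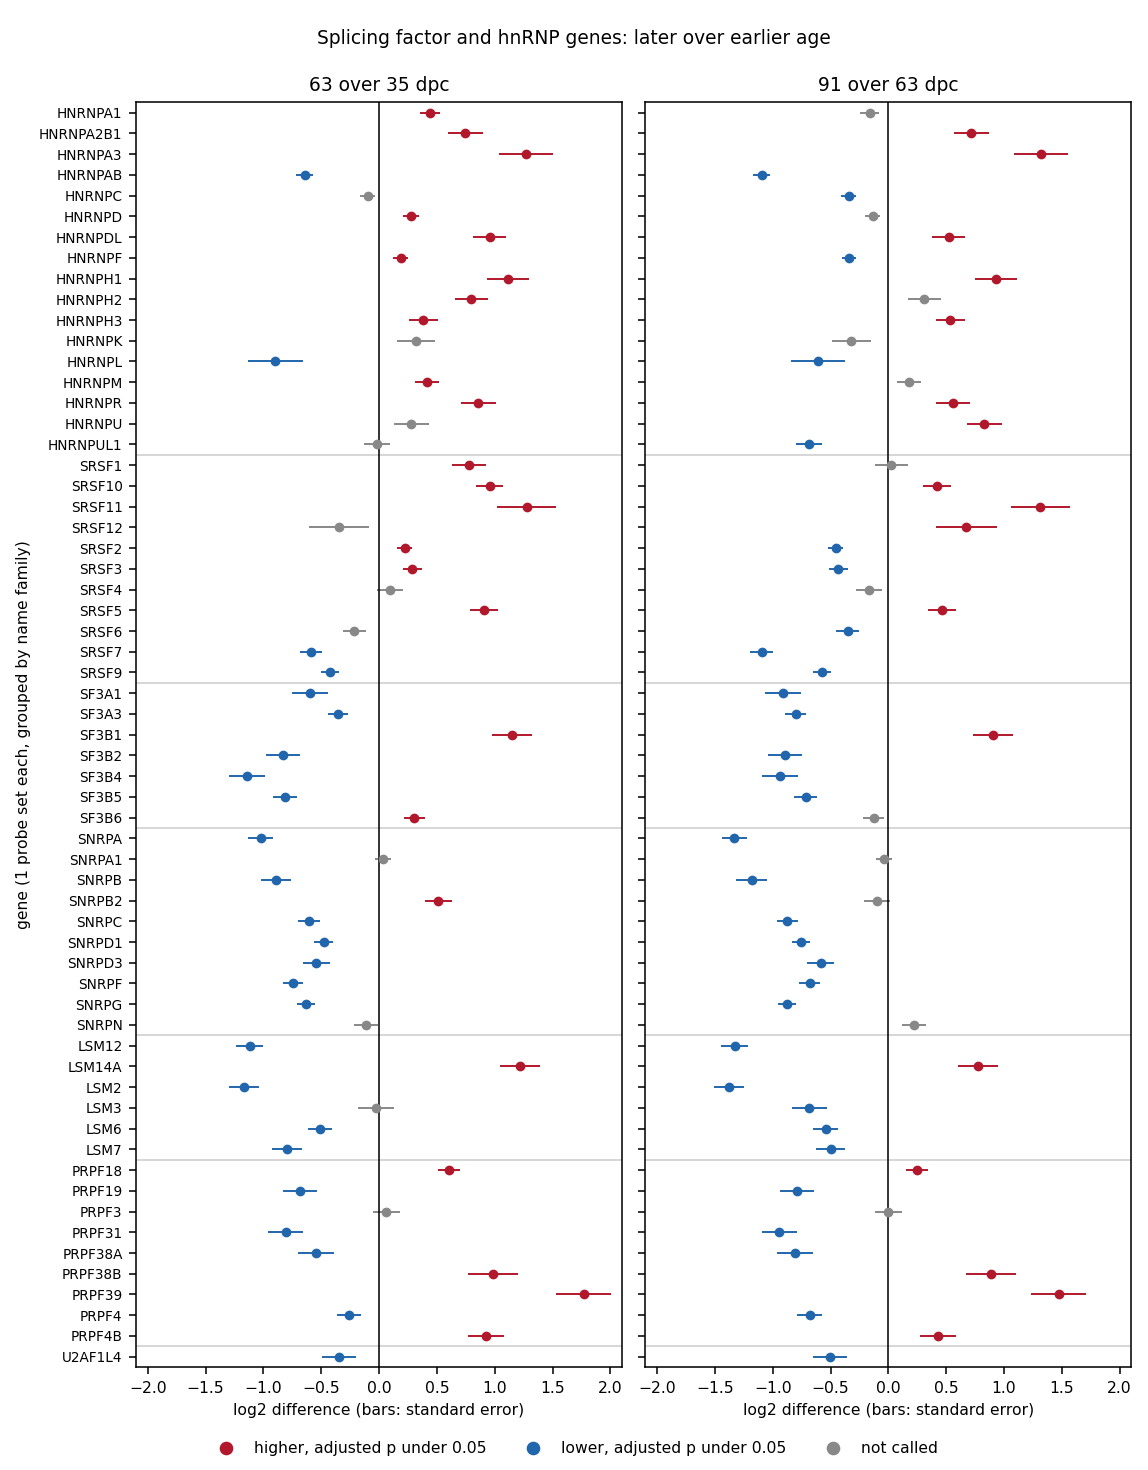
Log2 difference (x axis) of each of the 61 tested genes (y axis, grouped by name family), 63 over 35 dpc on the left and 91 over 63 dpc on the right, averaged over diets, with bars of 1 standard error. Most SNRP, LSM, SF3A and SF3B genes lie left of 0 in both panels, SF3B1 and LSM14A lie right of 0 in both, and PRPF39 has the largest positive difference in each panel (1.77 and 1.47).

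Of the 10 SNRP genes, which encode proteins of the snRNP particles, 7 fell and 1 rose from 35 to 63 dpc, with a median difference of -0.57, and 7 fell and none rose from 63 to 91 dpc, with a median of -0.72. Of all probe sets 28.0% fell in the first interval and 29.0% in the second. SNRPA encodes an RNA-binding protein of the U1 snRNP. Its log2 values ran from 10.37 to 11.32 (median 10.90) at 35 dpc, from 9.44 to 10.44 (median 9.80) at 63 dpc and from 8.003 to 8.76 (median 8.47) at 91 dpc. The 35 and 63 dpc arrays touched at their edges, and every 91 dpc array lay below every array of the other ages. SNRPA fell by 1.02 ± 0.11 at 63 over 35 dpc, a 2.03-fold decrease (limma adjusted p = 7.47e-09), and fell by 1.33 ± 0.11 at 91 over 63 dpc, a 2.52-fold decrease (limma adjusted p = 2.50e-11). SNRPC, the protein that helps the U1 snRNP hold the 5′ splice site, fell by 0.61 and then by 0.87.

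The Sm proteins form the ring that encloses the U1, U2, U4 and U5 RNAs, and the 5 ring genes measured under their own names, SNRPB, SNRPD1, SNRPD3, SNRPF and SNRPG, fell in both intervals. SNRPB averaged 11.08 ± 0.23 at 35 dpc, 10.19 ± 0.35 at 63 dpc and 9.01 ± 0.39 at 91 dpc (SD, n = 10, 12 and 10). It fell by 0.89 ± 0.13 and by 1.18 ± 0.13 (limma adjusted p = 1.75e-06 and 1.31e-08). SNRPG stood out for its narrow spread at 35 dpc, where 10 arrays lay between 11.80 and 11.95. It fell by 0.63 and by 0.87. The other kept probe set of SNRPG fell by 1.16 in the first interval and differed by -0.18 in the second, with no call there. SNRPD3 averaged 12.11, 11.57 and 10.98 at the 3 ages, and SNRPF 6.99, 6.25 and 5.57.

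The SNRP genes that did not fall encode different parts. SNRPN encodes SmN, a relative of the Sm protein of SNRPB, and averaged 8.65, 8.53 and 8.76 at 35, 63 and 91 dpc, with no call in either interval (limma adjusted p = 0.341 and 0.0608). SNRPA1, a protein of the U2 snRNP, averaged 8.71, 8.74 and 8.70, and its arrays overlapped fully at all ages. Its standard error of 0.07 places the 2 differences, 0.03 and -0.04, among the smallest of the family. These values are of its brightest probe set. The other kept probe set of SNRPA1 differed by 0.32 in the first interval, with no call, and rose by 0.46 in the second. On arrays centred on their medians, where 6497 of all 15308 probe sets fell in the first interval, 9 of the 10 SNRP genes fell, all but SNRPB2. The level course of SNRPA1 and SNRPN in that interval thus holds on the deposited scale. SNRPB2, its partner in that snRNP, rose by 0.51 ± 0.11 at 63 over 35 dpc (limma adjusted p = 2.60e-04) and differed by -0.10 ± 0.11 at 91 over 63 dpc.

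LSM2, LSM3, LSM6 and LSM7 encode proteins shared by the LSm ring on U6 RNA and by the cytoplasmic ring that binds mRNAs for decay. LSM2 ran from 8.90 to 9.70 (median 9.26) at 35 dpc, from 7.50 to 8.78 (median 8.08) at 63 dpc and from 6.31 to 7.15 (median 6.70) at 91 dpc. The 3 ages did not overlap. It fell by 1.17 ± 0.13 and by 1.38 ± 0.13, decreases of 2.25-fold and 2.60-fold (limma adjusted p = 1.24e-08 and 3.14e-10), the largest fall of the 61 genes in each interval. LSM7 fell by 0.80 and by 0.50. LSM3 differed by -0.03 ± 0.15 in the first interval and fell by 0.68 ± 0.15 in the second.

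The other pair of LSM genes carry an LSm domain but are not part of these rings. LSM12 ran from 7.09 to 7.71 (median 7.34) at 35 dpc, from 5.85 to 6.65 (median 6.24) at 63 dpc and from 4.52 to 5.39 (median 4.95) at 91 dpc, again without overlap between ages. It fell by 1.12 ± 0.12 and by 1.33 ± 0.12 (limma adjusted p = 5.70e-09 and 1.18e-10). The other kept probe set of LSM12 fell by 0.88 in the first interval and differed by -0.28 in the second, with no call there. LSM14A, a component of cytoplasmic P-bodies that takes part in holding mRNAs out of translation, was the 1 LSM gene that rose. It averaged 8.10, 9.32 and 10.10 at the 3 ages, and rose by 1.22 ± 0.17 and by 0.78 ± 0.17 (limma adjusted p = 6.02e-07 and 2.65e-04).

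The SF3A and SF3B complexes clamp the U2 snRNP on the branch point, and their largest subunit moved against most of the others. SF3B1, which contacts the branch region directly, rose, while SF3A1, SF3A3, SF3B2, SF3B4 and SF3B5 fell in both intervals. SF3B1 ran from 8.30 to 9.72 (median 8.83) at 35 dpc, from 8.96 to 10.82 (median 10.16) at 63 dpc and from 10.69 to 11.20 (median 10.83) at 91 dpc. The 63 dpc arrays overlapped both other ages, and the 91 dpc arrays lay above all 35 dpc arrays. It rose by 1.15 ± 0.17 and by 0.90 ± 0.17 (limma adjusted p = 1.69e-06 and 4.96e-05). SF3B1's second kept probe set rose by 1.34 ± 0.44 in the first interval and differed by 0.57 ± 0.44 in the second (limma adjusted p = 0.00986 and 0.279).

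SF3B4, an RNA-binding subunit next to the branch point, ran from 7.91 to 9.10 (median 8.78) at 35 dpc, from 7.04 to 8.04 (median 7.50) at 63 dpc and from 6.25 to 7.01 (median 6.43) at 91 dpc. The 91 dpc arrays lay below all others, and 35 and 63 dpc overlapped slightly. It fell by 1.14 ± 0.15 and by 0.94 ± 0.15 (limma adjusted p = 3.26e-07 and 5.80e-06). SF3B5 fell by 0.81 and by 0.72, SF3B2 by 0.83 and by 0.90, SF3A1 by 0.60 and by 0.91 and SF3A3 by 0.36 and by 0.80. SF3B6, the small p14 subunit that touches the branch adenosine, rose by 0.30 ± 0.09 at 63 over 35 dpc and differed by -0.13 ± 0.09 at 91 over 63 dpc.

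The PRPF genes carry the names of yeast pre-mRNA processing factors. Of the 9, 4 rose and 4 fell in each interval. All probe sets were also near balance, 32.6% rising and 28.0% falling, then 29.5% and 29.0%. Named genes had 30.5% rising and 38.6% falling in the first interval, and 22.6% and 39.9% in the second. PRPF39, the counterpart of a yeast U1 snRNP protein, had the largest rise of all 61 genes in both. Its values ran from 5.41 to 6.84 (median 5.81) at 35 dpc, from 6.32 to 8.77 (median 7.86) at 63 dpc and from 8.72 to 9.70 (median 9.10) at 91 dpc. The 63 dpc arrays were the most spread and overlapped both other ages, which were apart from each other. PRPF39 rose by 1.77 ± 0.24 and by 1.47 ± 0.24, increases of 3.41-fold and 2.77-fold (limma adjusted p = 2.79e-07 and 4.35e-06). Over 35 to 91 dpc the increase was 9.46-fold.

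PRPF38B averaged 5.09 ± 0.50, 6.07 ± 0.63 and 6.96 ± 0.44 at 35, 63 and 91 dpc (SD, n = 10, 12 and 10), and rose by 0.98 ± 0.22 and by 0.89 ± 0.22. Its relative PRPF38A, a protein that joins the spliceosome before activation, averaged 8.52, 7.98 and 7.17 and fell by 0.54 ± 0.16 and by 0.80 ± 0.16. PRPF4B, a kinase that acts on spliceosome proteins, rose by 0.93 and by 0.43, and PRPF18, which serves the second catalytic step, rose by 0.61 and by 0.25. PRPF31 and PRPF4, proteins of the U4/U6 snRNP, fell: PRPF31 by 0.81 and by 0.94, PRPF4 by 0.26 and by 0.68. PRPF3, another U4/U6 protein, averaged 7.45, 7.51 and 7.51 and was not called. PRPF19, a ubiquitin ligase needed to activate the spliceosome, fell by 0.68 ± 0.15 and by 0.79 ± 0.15.

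U2AF2, the large U2AF subunit that binds the polypyrimidine tract, was at the lowest value of the table, 2.20, on every array, so nothing can be said of its change. U2AF1L4, a relative of the small subunit that reads the last bases of the intron, averaged 6.56, 6.21 and 5.71 and fell by 0.35 ± 0.15 and by 0.51 ± 0.15. The first of these falls is close to the threshold (limma adjusted p = 0.0423), and leaving out a single array ended the call in 12 of 32 cases. The same held for PRPF4 in the first interval in 7 of 32 cases.

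From 35 to 63 dpc, 11 of the 17 hnRNP genes rose and 2 fell, with a median difference of 0.38, and from 63 to 91 dpc 7 rose and 5 fell, with a median of 0.18. All probe sets had 32.6% rising and 28.0% falling in the first interval, and 29.5% and 29.0% in the second. Named genes had 30.5% and 38.6%, then 22.6% and 39.9%. With arrays centred on their medians the first interval gave 7 rises and 4 falls and the second 7 rises and 8 falls. In that fit 3588 of all 15308 probe sets rose and 6497 fell, then 4181 rose and 4999 fell. HNRNPA3, a member of the A/B group that binds silencer elements and other RNA sites, ran from 6.60 to 7.72 (median 6.85) at 35 dpc, from 6.56 to 9.22 (median 8.61) at 63 dpc and from 9.06 to 9.95 (median 9.65) at 91 dpc. The 35 and 91 dpc arrays were far apart, and 63 dpc arrays reached into both ranges. It rose by 1.27 ± 0.24 and by 1.32 ± 0.24 (limma adjusted p = 3.42e-05 and 2.08e-05).

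HNRNPH1, which binds runs of G, averaged 10.87 ± 0.51, 11.98 ± 0.53 and 12.91 ± 0.21 at 35, 63 and 91 dpc, and rose by 1.12 ± 0.18 and by 0.93 ± 0.18 (limma adjusted p = 5.73e-06 and 6.55e-05). Its relative HNRNPH3 rose in both intervals (0.38 and 0.54), HNRNPH2 rose by 0.80 in the first and differed by 0.31 ± 0.14 in the second, and HNRNPF, of the same subfamily, rose by 0.19 and then fell by 0.34. HNRNPA2B1 rose by 0.74 and by 0.72, HNRNPR by 0.86 and by 0.56, and HNRNPDL by 0.96 and by 0.52. Of the 3 kept probe sets of HNRNPA2B1, 2 rose in each interval and 1 was not called (-0.10 in the first, -0.27 in the second). The other kept probe set of HNRNPR rose by 0.47 in the first interval and differed by -0.21 in the second, with no call there. HNRNPA1, a well known antagonist of SR proteins, had every 63 dpc array above every 35 dpc array, 11.50 to 11.89 against 10.89 to 11.46. It rose by 0.44 ± 0.08 (limma adjusted p = 4.52e-05) and differed by -0.16 ± 0.08 in the second interval. It was the 1 gene with such a separation upward in the first interval, 1.64% of 61, where 3.61% of all probe sets and 4.60% of named genes were so separated.

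HNRNPAB and HNRNPL went the other way. HNRNPAB, an A/B type hnRNP, averaged 11.98 ± 0.16, 11.33 ± 0.16 and 10.24 ± 0.16 at the 3 ages, with no overlap between any of them. It fell by 0.64 ± 0.07 and by 1.09 ± 0.07 (limma adjusted p = 2.44e-08 and 5.20e-13), and at 91 dpc it was 3.33-fold lower than at 35 dpc. HNRNPL, which binds CA repeats, was much more variable, 9.98 ± 0.50, 9.08 ± 0.69 and 8.48 ± 0.48, and fell by 0.90 ± 0.23 and by 0.61 ± 0.23. In the second interval it differed by -0.10 within the arrays of large spike-in gap and by -1.20 within those of small gap. That second fall (limma adjusted p = 0.0267) was no longer called when any of 4 single arrays was left out. With the mean erythroid marker level of each array as a covariate, HNRNPL was called in neither interval: it differed by -0.43 ± 0.26 in the first and by 0.99 ± 0.58 in the second, where its sign turned (limma adjusted p = 0.168 and 0.253).

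HNRNPC, which binds U tracts on nascent RNA, averaged 10.97, 10.87 and 10.53, was not called in the first interval and fell by 0.34 ± 0.07 in the second. The other kept probe set of HNRNPC was called in neither interval (0.11 and -0.07). HNRNPUL1 differed by -0.02 ± 0.11 in the first and fell by 0.69 ± 0.11 in the second. HNRNPD, whose protein binds AU-rich elements and promotes decay of the mRNA, averaged 12.62, 12.90 and 12.77. It rose by 0.28 ± 0.07 in the first interval and differed by -0.14 in the second, with no call there. The other kept probe set of HNRNPD differed by 0.03 in the first interval, with no call, and fell by 0.66 in the second. HNRNPK, which binds C-rich stretches, was not called in either interval by its brightest probe set. That probe set differed more by spike-in gap than by age, by -0.65 for large over small gap (limma adjusted p = 1.97e-07). The other kept probe set of HNRNPK rose by 0.80 in the first interval and differed by 0.24 in the second, with no call there. The HNRNPU probe set lay near background: its values were 2.20 to 2.91 at 35 dpc, 2.70 to 4.32 at 63 dpc and 3.19 to 4.42 at 91 dpc, with many tied values. It rose by 0.83 ± 0.15 at 91 over 63 dpc (limma adjusted p = 2.61e-05), with most of its values at 35 and 63 dpc near background.

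The SR protein genes fell mainly into those that rose throughout, those that fell and a pair that turned. Of the 11, 6 rose and 2 fell in the first interval (median difference 0.22), and 4 rose and 5 fell in the second (median -0.17). In the first interval 32.6% of all probe sets and 30.5% of named genes rose, and 28.0% and 38.6% fell. In the second, 29.5% and 22.6% rose, and 29.0% and 39.9% fell. With arrays centred on their medians the first interval gave 4 rises and 4 falls, with a median of -0.01, where 3588 of all 15308 probe sets rose and 6497 fell. SRSF11 encodes a nuclear SR protein of atypical structure. Its values ran from 8.18 to 9.80 (median 9.03) at 35 dpc, from 8.80 to 11.03 (median 10.46) at 63 dpc and from 10.80 to 12.20 (median 11.66) at 91 dpc. Neighbouring ages overlapped, and 35 and 91 dpc did not. It rose by 1.28 ± 0.26 and by 1.31 ± 0.26 (limma adjusted p = 8.56e-05 and 6.18e-05), 6.02-fold from 35 to 91 dpc. SRSF10, which represses splicing when dephosphorylated, rose by 0.96 ± 0.12 and by 0.42 ± 0.12, and SRSF5 rose by 0.91 ± 0.12 and by 0.46 ± 0.12. Of the 4 kept probe sets of SRSF10, 3 rose in each interval and 1 was not called, at -0.51 in the second. SRSF1, the founding member of the family, rose by 0.78 ± 0.14 in the first interval and differed by 0.03 ± 0.14 in the second.

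SRSF7, an SR protein that also serves mRNA export, averaged 11.61 ± 0.28, 11.02 ± 0.21 and 9.93 ± 0.22 at 35, 63 and 91 dpc. It fell by 0.59 ± 0.10 and by 1.09 ± 0.10 (limma adjusted p = 8.55e-06 and 1.63e-10), and its 91 dpc arrays lay below all others. SRSF9 fell by 0.43 ± 0.08 and by 0.58 ± 0.08. The other kept probe set of SRSF9 differed by -0.06 in the first interval, with no call, and fell by 0.33 in the second. SRSF3, the smallest SR protein, and SRSF2, which stays in the nucleus, rose slightly in the first interval (0.29 ± 0.08 and 0.22 ± 0.06) and fell in the second, by 0.43 ± 0.08 and 0.45 ± 0.06. For both the 91 dpc arrays lay below every 63 dpc array. With arrays centred on their medians the first change of SRSF2 and of HNRNPF turned in sign and was not called. SRSF4 was not called in either interval. SRSF12 averaged 4.69, 4.35 and 5.02, and its rise of 0.68 ± 0.26 in the second interval was no longer called when any of 4 single arrays was left out.

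The counts of genes with fully separated ages were larger for the falls. At 63 over 35 dpc, 7 genes had every 63 dpc array below every 35 dpc array, 11.5% of 61, where 5.00% of all probe sets and 8.36% of named genes did. At 91 over 63 dpc, 18 genes were separated downward, 29.5% against 6.95% of all probe sets and 11.4% of named genes. None was separated upward there, where 6.11% of all probe sets and 5.14% of named genes were. Over 91 against 35 dpc, 16 were separated upward and 23 downward, 26.2% and 37.7%, beside 21.4% and 18.7% of all probe sets and 18.4% and 28.3% of named genes.

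The genes with the largest rises were widely spread at 63 dpc. Control replicates 2 and 4 had the lowest values of the 63 dpc arrays for PRPF39 (6.32 and 6.66), HNRNPA3 (6.56 and 7.07), SRSF11 (8.80 and 9.31) and SF3B1 (8.96 and 9.45). Control replicate 5 had the highest value for each of these 4 genes, 8.77, 9.22, 11.03 and 10.82. All 3 arrays belong to the small spike-in gap set. The log2 difference between 3′ and 5′ control probe sets, which grows as RNA is degraded, was 1.32, 1.21 and 1.49 on them, within the 1.15 to 2.01 of all 63 dpc arrays. Its part in the result was not tested.

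**Figure D2:**
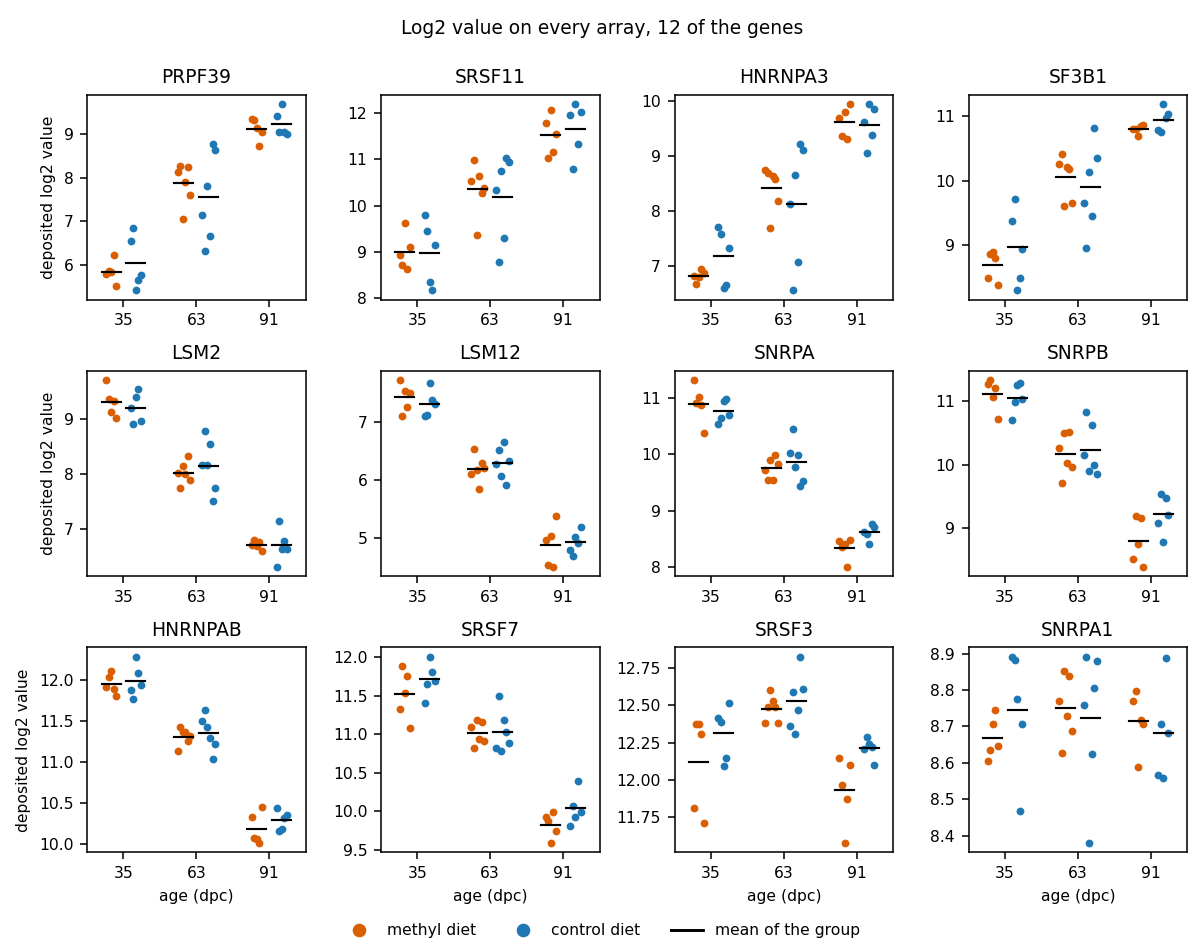
Deposited log2 value (y axis, own scale for each gene) on every array at 35, 63 and 91 dpc (x axis), methyl-enriched diet in orange and control diet in blue, with a black bar at the mean of each group. PRPF39, SRSF11, HNRNPA3 and SF3B1 rise with a wide spread at 63 dpc, LSM2, LSM12, SNRPA, SNRPB, HNRNPAB and SRSF7 fall in narrower steps, and SRSF3 and SNRPA1 end near where they began.

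Markers of blood formation and cell division fell over the same ages. The mean level of the 10 erythroid markers measured was 11.3 at 35 dpc, 10.8 at 63 dpc and 9.11 at 91 dpc, with 7 falling and 1 rising in the first interval and 8 falling and 1 rising in the second. HBB was the marker that rose in both, and HBE1, the embryonic globin, fell by 1.56 and by 4.08. The summed erythroid signal on the log2 scale lay between 16.0 and 16.5 at 35 dpc, between 15.6 and 16.0 at 63 dpc and between 13.5 and 15.1 at 91 dpc. Of the 20 markers of proliferating cells, 12 fell and 3 rose, then 18 fell and none rose, and their mean was 9.78, 9.17 and 7.68. Their summed signal spanned 14.6 to 15.0, 14.1 to 14.5 and 12.7 to 13.6. No marker of either list was near the lowest value of the table. Of the 22 hepatocyte markers 16 rose and none fell in the first interval, and 10 rose and 4 fell in the second. All 6 granulocyte markers measured rose in the first and fell in the second, and of 9 macrophage markers 2 rose and 1 fell, then 5 rose and 1 fell. In whole liver, fewer cells of a type and less RNA per cell cannot be told apart.

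With the mean erythroid level of each array as a covariate in the limma fit, the first interval gave 26 genes higher and 23 lower, near the 25 and 25 without it, and 29.0% of all probe sets higher and 25.2% lower. In the second interval 1 gene was higher, HNRNPU, and 10 were lower, 1.64% and 16.4% of 61. Calls fell across the array in that fit, to 4.67% of all probe sets higher and 6.58% lower. Those 10 were HNRNPAB, LSM12, LSM2, LSM7, SNRPA, SNRPC, SNRPD1, SNRPD3, SNRPF and SRSF9. The erythroid level follows age closely, and the standard errors grew: PRPF39 differed by 1.72 ± 0.67 at 91 over 63 dpc with the covariate and by 1.47 ± 0.24 without it. LSM2 differed by -1.27 ± 0.36 with it and by -1.38 ± 0.13 without it. Estimates moved too: SRSF7 differed by -0.44 ± 0.25 with it and by -1.09 ± 0.10 without it. HNRNPL and SRSF12 turned in sign at 91 over 63 dpc, to 0.99 ± 0.58 and -0.90 ± 0.67 with the covariate, against -0.61 ± 0.23 and 0.68 ± 0.26 without it, and neither was called with it. The part of the proliferating cells in these results was not tested. The 3′ to 5′ difference averaged 1.69, 1.54 and 1.84 at 35, 63 and 91 dpc, and its part in the results was not tested either.

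**Figure D3:**
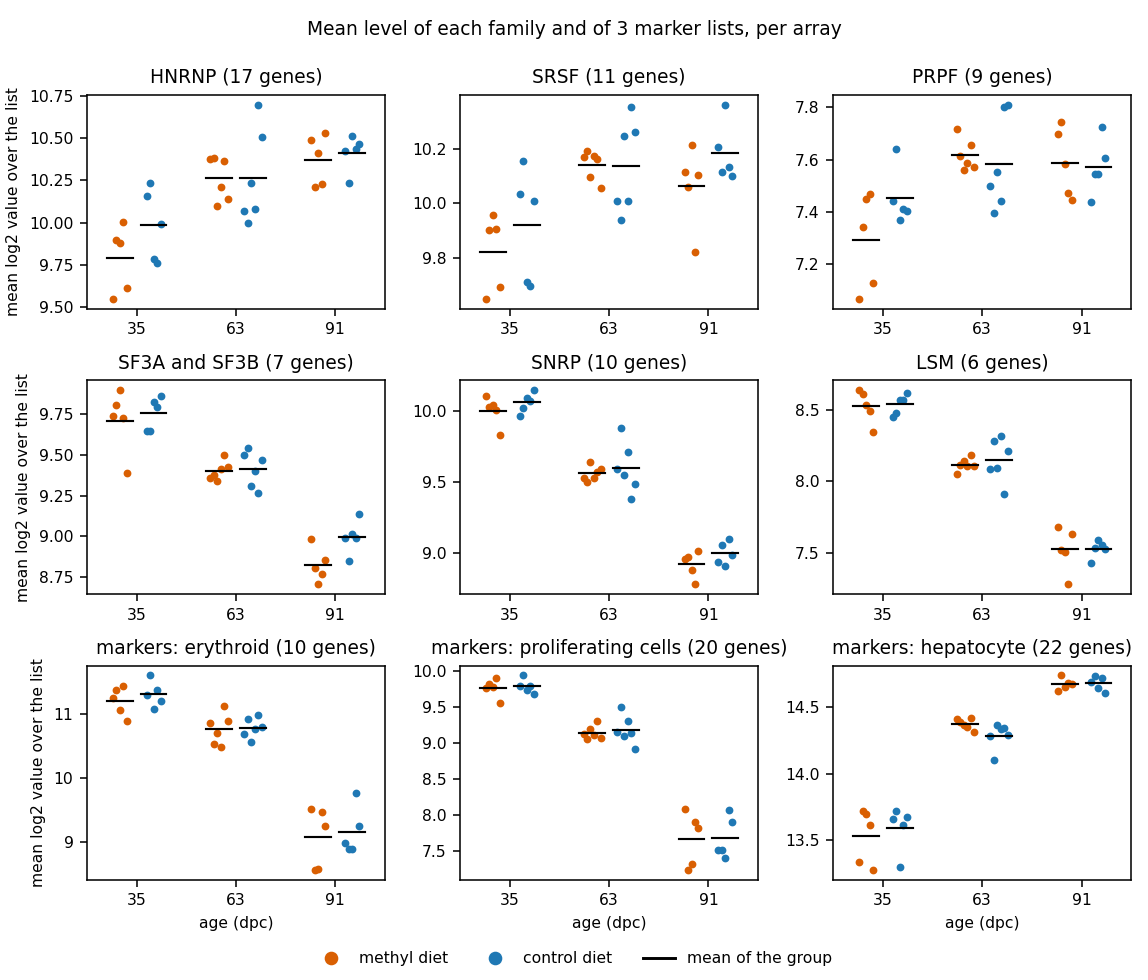
Mean log2 value over the genes of 6 name families and of 3 marker lists (y axis, own scale for each panel) on every array at 35, 63 and 91 dpc (x axis), methyl-enriched diet in orange, control diet in blue and group means as black bars. The SNRP mean was 10.03, 9.58 and 8.96 and the LSM mean 8.53, 8.13 and 7.52, both falling as the erythroid and proliferating cell means do, while the HNRNP mean was 9.89, 10.26 and 10.39.

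The spike-in split crossed age and diet, so each change could be read within it. Of the 61 genes, 15 differed between the large-gap and small-gap arrays, 24.6%, as did 24.1% of all probe sets. SRSF11 had the largest such difference (0.69 higher in large-gap arrays, limma adjusted p = 0.00413). All 50 genes called for 63 over 35 dpc had the same sign within the large-gap and within the small-gap arrays, and so did the 49 called for 91 over 63 dpc. The calls came from these same arrays, so the shared sign is not independent of them. The share of all called probe sets with such a shared sign was not counted. PRPF39 differed by 2.08 within large-gap and 1.39 within small-gap arrays at 63 over 35 dpc, and by 1.39 and 1.51 at 91 over 63 dpc. LSM2 differed by -1.28 and -1.06 in the first interval and by -1.36 and -1.35 in the second. The 14 small-gap arrays alone, which are fewer samples, called fewer rises, 9 in the first interval and 4 in the second. The share of all probe sets called in that fit was not counted, so these counts cannot be set against it.

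Other genes of splicing and mRNA processing, outside these names, were read in the same fit. Of 96 such genes, 47 rose and 35 fell from 35 to 63 dpc, and 25 rose and 43 fell from 63 to 91 dpc. Among the 38 further core spliceosome genes, 16 rose and 17 fell, then 7 rose and 19 fell. Beside both sets, 30.5% of named genes rose and 38.6% fell in the first interval, and 22.6% rose and 39.9% fell in the second. With the erythroid covariate, 2 of the 96 rose and 13 fell in the second interval, where 4.67% of all probe sets rose and 6.58% fell. In the small-gap arrays alone 21 of the 96 rose and 23 fell in the first interval and 10 rose in the second. ZMAT5, a protein of the minor U11/U12 snRNP, fell by 1.19 ± 0.16 and by 2.44 ± 0.16 (limma adjusted p = 2.51e-07 and 2.24e-13), and its 3 ages averaged 10.93, 9.74 and 7.30. SNRNP40, a U5 protein, fell by 0.64 and by 0.97, PPIH, a cyclophilin of the U4/U6 snRNP, by 0.84 and by 0.82, and RBM17, a U2-associated splicing factor, by 0.39 and by 0.92.

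The genes of the machinery that loads Sm rings on snRNAs moved in both directions. Of its 12 genes measured, 6 rose and 6 fell, then 2 rose and 5 fell. Of named genes, 30.5% rose and 38.6% fell, then 22.6% rose and 39.9% fell. The methylosome genes PRMT5, which methylates Sm tails, WDR77 and CLNS1A fell in both intervals, PRMT5 by 0.69 ± 0.10 and by 0.80 ± 0.10, WDR77 by 0.77 and by 0.64 and CLNS1A by 0.29 and by 0.45. GEMIN2, of the SMN complex that assembles the ring, rose by 1.22 ± 0.19 in the first interval and differed by 0.43 ± 0.19 in the second (limma adjusted p = 0.0502).

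Of 25 splicing regulators outside the HNRNP and SRSF names, 17 rose and 2 fell in the first interval, where 32.6% of all probe sets rose, and 10 rose and 7 fell in the second, where 29.5% did. MBNL3, a muscleblind-like splicing regulator, averaged 9.34, 11.25 and 13.80 and rose by 1.91 ± 0.17 and by 2.55 ± 0.17 (limma adjusted p = 3.45e-10 and 4.89e-13), with no overlap between ages. RBM39 rose by 1.39 and by 0.91, CELF2 by 1.27 and by 0.42 and RBFOX2 by 0.38 and by 0.62, whereas RALY, an hnRNP C relative, fell by 0.71 and by 0.96. Of the 5 kinases of SR proteins, CLK1 rose by 1.42 ± 0.25 and by 1.05 ± 0.25 and DYRK1A by 0.95 and by 0.34, while CLK2 fell by 0.31 and by 0.42 and CLK3 by 0.68 and by 0.52.

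Among 16 genes of the exon junction complex and mRNA export, 5 rose and 8 fell, then 3 rose and 10 fell. Of named genes, 30.5% rose and 38.6% fell, then 22.6% rose and 39.9% fell. ALYREF, the export adaptor, fell by 0.74 and by 1.17, NXT1, a partner of the export receptor, by 1.05 and by 0.93, and the junction proteins EIF4A3 and RNPS1 fell by 0.48 and 0.53 in the first interval and by 0.82 and 0.73 in the second. THOC7, of the THO export complex, rose by 1.04 and by 0.67.

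Several genes have more than 1 probe set, which need not report the same transcript. Of the 20 genes with several kept probe sets, 8 had all of them called in 1 direction at 63 over 35 dpc, 11 had some not called and 1, LSM6, had opposite calls. LSM6's brightest probe set averaged 7.01, 6.51 and 5.96 at the 3 ages and fell by 0.51 ± 0.11 and by 0.54 ± 0.11. Its other kept probe set averaged 5.57, 6.71 and 6.53 and rose by 1.13 ± 0.21 in the first interval (limma adjusted p = 4.10e-05).

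At 91 over 63 dpc only 4 of the 20 genes had all kept probe sets called in 1 direction, and 15 had some not called. SRSF6 had opposite calls there, the 1 gene of the 20 that did. It encodes an SR protein and has 6 kept probe sets. The brightest averaged 10.84, 10.63 and 10.28 at 35, 63 and 91 dpc, differed by -0.22 ± 0.10 and then fell by 0.35 ± 0.10 (limma adjusted p = 0.0618 and 0.00332). The other 5 all rose at 63 over 35 dpc. The fourth brightest averaged 5.66, 7.73 and 9.59 and rose by 2.08 ± 0.29 and by 1.86 ± 0.29, and at 91 dpc it was 15.3-fold above its 35 dpc level. The dimmest averaged 3.96, 5.97 and 7.63 and was 12.7-fold above. For both, every 91 dpc array lay above every 63 dpc array. The remaining 3 rose by 0.57 to 0.75 in the first interval and differed by 0.14 to 0.29 in the second, with no call.

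SRSF11 divided in a like manner without opposite calls: 3 of its 5 kept probe sets rose in both intervals, and the other two, its dimmest, were not called in either. For SRSF1 all 3 kept probe sets rose in the first interval, by 0.59 to 0.78, and in the second 1 of them, not the brightest, fell by 0.70 ± 0.22 while the other two were not called. The position of these probe sets in the transcripts was not used here.

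**Figure D4:**
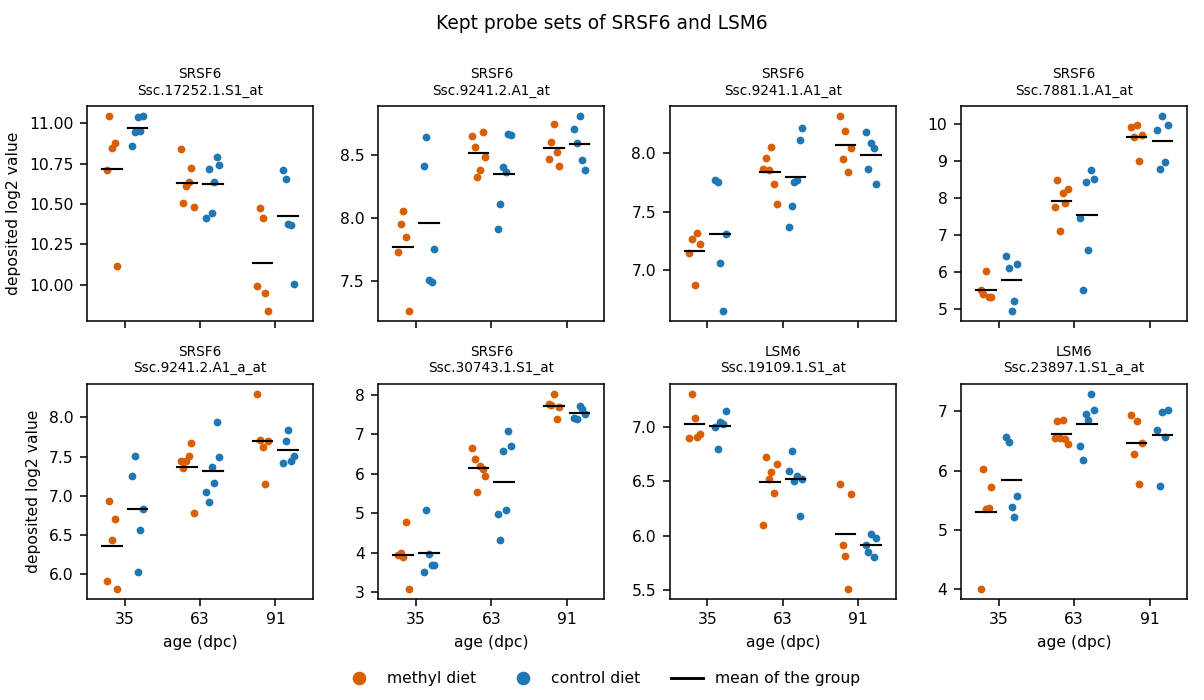
Deposited log2 value (y axis, own scale for each panel) of the 6 kept probe sets of SRSF6 and the 2 of LSM6 on every array at 35, 63 and 91 dpc (x axis), methyl-enriched diet in orange, control diet in blue and group means as black bars. The brightest SRSF6 probe set has means of 10.84, 10.63 and 10.28 at the 3 ages, while the fourth brightest (top right panel) climbs to 9.59 at 91 dpc. The LSM6 probe sets move in opposite directions only from 35 to 63 dpc, 1 from 7.01 to 6.51 and the other from 5.57 to 6.71.

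The diet comparison is the one the study was set up for, and no splicing gene was called in it. By limma, 0 of 61 genes passed at 35, 63 or 91 dpc, averaged over ages, or in the F test for a diet difference that varies with age. Over all 15308 probe sets, 6, 0 and 11 were called at 35, 63 and 91 dpc, which is 0.0392%, 0% and 0.0719%, and none in the averaged comparison or the F test. At an unadjusted p under 0.05 there were 1, 0 and 6 of the 61 genes at the 3 ages, 5 averaged over ages and 1 in the F test. These are 1.64%, 0%, 9.84%, 8.2% and 1.64% of the 61, where 6.09%, 1.43%, 6.52%, 4.47% and 4.31% of all probe sets had such a p. In no gene did the diet groups of an age fail to overlap, where of all probe sets 0.150%, 0.0523% and 0.144% were separated upward at the 3 ages and 0.163%, 0.0327% and 0.601% downward. The differences were small beside those of age: across the 61 genes they ran from -0.63 to 0.34 at 35 dpc, from -0.33 to 0.32 at 63 dpc and from -0.62 to 0.36 at 91 dpc.

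At 35 dpc, 45 of the 61 genes had a lower mean under the methyl-enriched diet, with a median difference of -0.13, where all probe sets had a median of -0.02. Of all 15308 probe sets 8304 were lower at that age, and of 5589 named genes 3094. At 63 and 91 dpc 32 and 40 of the 61 genes were lower. The genes share arrays, so they are not independent counts. HNRNPC had the smallest p. Its methyl-diet arrays were at 10.63, 10.78, 10.87, 10.92 and 11.05, against 10.91, 11.08, 11.11, 11.13 and 11.19 in control arrays. The diets overlapped, and the difference was -0.23 ± 0.10 (limma unadjusted p = 0.0215, adjusted p = 0.765). HNRNPM differed by -0.30 ± 0.15. PRPF38B had the largest difference of that age, -0.63 ± 0.32, with methyl-diet arrays at 4.05 to 5.29 and control arrays at 5.16 to 5.76 (limma unadjusted p = 0.0592, adjusted p = 0.822).

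At 63 dpc the smallest p was 0.126, for HNRNPU. Its methyl-diet arrays lay between 2.70 and 2.91 (median 2.91) and its control arrays between 2.91 and 4.32 (median 2.92), and its difference of -0.32 ± 0.20 rests mostly on the 1 control array at 4.32. SRSF9 differed by 0.16 ± 0.10 and SNRPD1 by -0.16 ± 0.11. The median over the 61 genes was -0.02.

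At 91 dpc HNRNPA1 was at 11.37, 11.48, 11.62, 11.81 and 12.04 in methyl-diet arrays, against 10.94, 11.12, 11.37, 11.45 and 11.63 in control arrays. The methyl-diet values were mostly the higher ones, with overlap, and the difference was 0.36 ± 0.12 (limma unadjusted p = 0.00618, adjusted p = 0.457). It was 0.49 within large-gap and 0.18 within small-gap arrays. SF3A1 differed by -0.62 ± 0.23 (limma adjusted p = 0.538), with methyl-diet arrays at 7.64 to 8.67 and control arrays at 7.89 to 9.35. SRSF3 differed by -0.28 ± 0.12 (limma adjusted p = 0.678), with methyl-diet arrays at 11.58 to 12.15 and control arrays at 12.10 to 12.29.

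Averaged over the 3 ages, HNRNPA1 had a difference of 0.20 ± 0.07, SRSF3 of -0.17 ± 0.07 and SNRPD1 of -0.15 ± 0.06, each with a limma adjusted p of 0.999. HNRNPA1 was positive at each age, with 0.10, 0.13 and 0.36. For SRSF9 the diet differences at 35, 63 and 91 dpc were -0.08, 0.16 and -0.25, the 1 gene with an unadjusted p under 0.05 in the F test (limma F test, unadjusted p = 0.0402).

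**Figure D5:**
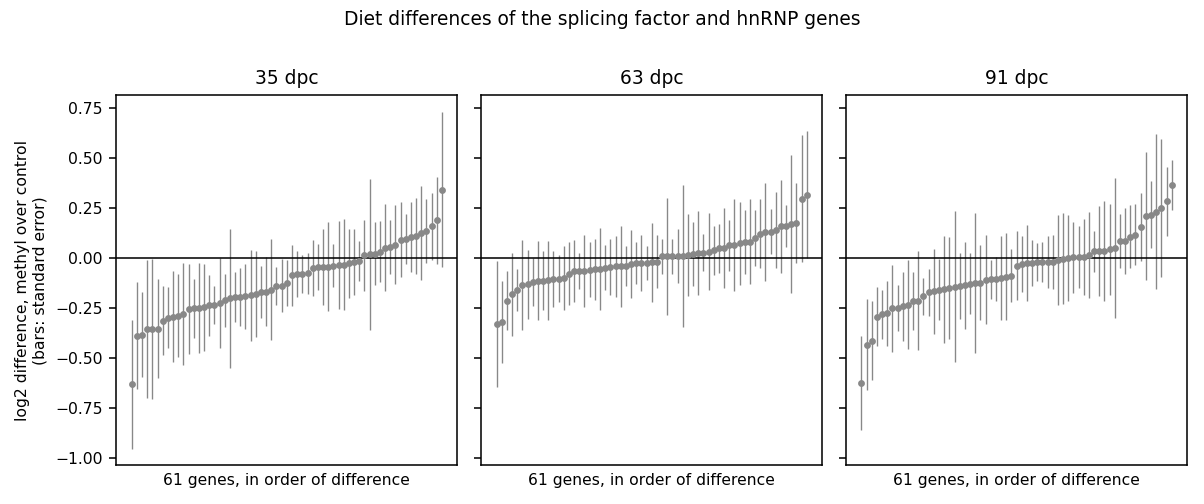
Log2 difference, methyl-enriched over control diet (y axis), of the 61 tested genes at 35, 63 and 91 dpc (1 panel each, genes in order of difference along the x axis), with bars of 1 standard error. Differences lie between -0.63 and 0.36, most bars reach 0, and 45, 32 and 40 genes lie below 0 at 35, 63 and 91 dpc.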

How the data were processed

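Each of the 32 samples is 1 array, and the values tested are the authors' deposited log2 signals per probe set; GCOS 1.1.1 appears in the submitters' processing notes, and the method of normalization is not given in the sources used here. A normalization that forces arrays to a common level can shift all fold changes together, so a version centred on array medians was run beside the deposited scale. Gene symbols come from the platform annotation, in which 10099 probe sets carry 1 symbol, 198 have several and 13826 have none, and only the first kind was named. The 124 control probe sets were set aside. Of 24123 probe sets, 15308 exceeded the 40th percentile of an array in at least 5 arrays and were kept.

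Groups follow the diet and age in the labels. Replicate numbers were given in accession order and pair no arrays. limma 3.58.1 in R 4.3.3 was fitted to all 32 arrays with a mean per group of age and diet and an intensity trend in the variance, and p-values were adjusted by Benjamini-Hochberg over the 15308 probe sets. Age differences are averaged over diets. No batch is given in the labels; the spike-in gap was cut at 1.2 log2 units. The highest correlation between arrays was 0.992, so none was identical to another.

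The genes named with full values were, per successive age comparison, the 6 with the largest change in each direction, per diet comparison the 3 smallest p-values, the brightest gene of each name family, genes not kept, genes with opposite probe sets and 3 genes per list of other splicing genes with the smallest p-values. Other members are given by their values or counts, in order of their roles, and genes described beyond this rule were chosen after their values were seen. The members, gene lists and tests were chosen with earlier results of these data known.

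The fit was tested on simulated data over 15308 probe sets. Changes of 0.5, 1 and 2 log2 units were planted in 67, 67 and 66 probe sets, and all others were left unchanged. For 63 over 35 dpc it recovered 32.8% of planted log2 changes of 0.5, 94% of those of 1 and 100% of those of 2, with 9 false calls. In the measured data 60.6% of probe sets were called in that comparison, so recovery there can differ from the simulated one. For methyl-enriched over control diet at 63 dpc it recovered 17.9%, 77.6% and 93.9%, with 3 false calls. Alternatives changed the filter, variance model, scaling, array weights, probe set choice, arrays fitted, covariates (spike-in gap, erythroid level), threshold and each array in turn.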

Additional observations from a re-analysis of the deposited data

Results flagged for a closer look

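Each group of 5 or 6 arrays was searched, for 31 of the splicing genes, for a single array far from the rest, by the gap to its nearest neighbour as a share of the group's range. Of 186 groups 8 had such an array. Chance flags about 1 in 20 groups. HNRNPU supplied 4 of them, all near background with tied values: control replicate 3 at 35 dpc and methyl-diet replicate 3 at 63 dpc lay at 2.70 where the others were all at 2.91 (share 1 in both), methyl-diet replicate 2 at 91 dpc lay at 3.19 below others of 3.97 to 4.21 (0.761), and control replicate 5 at 63 dpc lay at 4.32 above others of 2.91 to 3.17 (0.811). HNRNPD in control replicate 4 at 35 dpc was 12.33, below others of 12.68 to 12.75 (0.818). SNRPA in methyl-diet replicate 4 at 91 dpc was 8.003, below others of 8.35 to 8.48 (0.727). HNRNPM in control replicate 1 at 91 dpc was 9.23, below others of 9.49 to 9.59 (0.744). PRPF38B in control replicate 2 at 91 dpc was 5.89, below others of 6.84 to 7.21 (0.719).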

How the results depend on the processing

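The 24 age results of named genes kept direction and call in 345 comparisons with an alternative and lost the call in 15, of which 6 came from the 14 small-gap arrays alone and 9 from the erythroid covariate. With small-gap arrays alone, which are fewer samples, the genes higher numbered 9 (63 over 35 dpc) and 4 (91 over 63 dpc), and the other splicing genes 21 higher and 23 lower, then 10 higher. The share of all probe sets called in that fit was not counted. With the erythroid covariate 1 gene was higher and 10 lower at 91 over 63 dpc, and 2 other splicing genes were higher and 13 lower. At 91 over 35 dpc 16 genes were higher and 19 lower, beside 2970 and 2837 of all 15308 probe sets. Standard errors grew, and 38 of 49 calls at 91 over 63 dpc were lost. HNRNPL and SRSF12 turned in sign there, as HNRNPL and SRSF2 did at 91 over 35 dpc, none of them called. The cause was not tested. The diet difference of SRSF9 at 63 dpc became -0.023 with the mean over its kept probe sets; the cause was not tested. Leaving out single arrays gave 25 to 26 genes higher and 23 to 26 lower at 63 over 35 dpc, 16 to 19 and 31 to 33 at 91 over 63 dpc, 21 to 22 and 30 to 32 at 91 over 35 dpc, and 0 for every diet comparison. No paired analysis was possible because the replicate numbers were given in accession order and tie no arrays together. Signals near the lowest value (U2AF2, HNRNPU) limit what can be read of those genes, and the simulated diet changes of 0.5 log2 units were mostly missed at these group sizes.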
